A study of Mus musculus with 9 samples.

Results

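The ribosomal protein genes were followed in crypt epithelium of the mouse intestine, with the processed pseudogenes and paralogs that share their sequence. Members were chosen by symbol: Rpl or Rps and a number, Rplp0 to Rplp2 and Rpsa, named copies included, without the 10 symbols of ribosomal protein S6 kinases, and with the gene model Gm12191 added. The rule found 97 of the 24930 symbols measured: 43 of the large subunit, 31 of the small subunit, 3 of the stalk, 11 paralogs or copies under a symbol of their own, 8 pseudogenes or gene models, and Rps19bp1, a protein that binds RPS19 and matched by its symbol alone. The family was picked after the mutant against control values of Rpl34 and Rpl30 had been seen. The values of Rpl34, Rpl30, Rpl34-ps1 and Gm12191 in that comparison are therefore a description, and nothing is supported with them.

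Poly(A) RNA was sequenced from 3 groups. Each had 1 library per day, at days 8, 9 and 10 after induction of a single gain-of-function allele of the β-catenin gene Ctnnb1 in the mutants. By title, mutant set A had 1 mutant β-catenin allele, and mutant set B had it together with 1 mutant allele of Cdx2, an intestinal transcription factor. The library names give CDX2HET to set A and not to set B. Which mutant set carried the Cdx2 allele cannot be settled from the labels, so the neutral names A and B are kept, and the third group is the control. The sources used here do not give the Cre driver, the strain, the age or the sex of the mice, nor whether each library came from its own animal. The p-values therefore speak only of the spread among these 9 libraries. All values are treated as FPKM, a unit taken from the values themselves. They are read as fragments scaled by the length of the transcript and by a size factor for each library. In set B the library of day 9 stood apart from the other mutants: without it limma called 995 of all genes tested in both mutant sets against control, against 140 with all libraries and 17 to 114 without any 1 of the other 8.

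A ribosome holds 1 copy of most of its proteins, and the genes for them are transcribed at high and closely matched levels. Their mRNAs begin with a run of pyrimidines, the terminal oligopyrimidine tract, through which the mTOR pathway sets their translation. Because these mRNAs are abundant in the germ line, they have been copied back into the genome many times, which leaves intronless pseudogenes that may differ from the source gene by a few bases. A short read from such a gene can match its copy equally well.

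The bases that tell the main pairs apart are shown because the values below turn on them. In GENCODE M21 transcripts Rpl34 and Rpl34-ps1 were 99.4% identical over 354 bases that held the whole reading frame, and they differed at T132C and C318G, where the gene's base comes first, the copy's base last, and positions count from 1 at the A of the start codon. Rpl30 and Gm12191 were 99.7% identical over 348 bases and differed at G96A alone. Each sequence below spans 31 bases, and the capital marks the base that differs.
Rpl34 at 132: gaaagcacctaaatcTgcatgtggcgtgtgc
Rpl34-ps1 at 132: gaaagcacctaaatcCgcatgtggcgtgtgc
Rpl34 at 318: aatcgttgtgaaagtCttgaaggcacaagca
Rpl34-ps1 at 318: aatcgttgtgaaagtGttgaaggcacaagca
Rpl30 at 96: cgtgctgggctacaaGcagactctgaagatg
Gm12191 at 96: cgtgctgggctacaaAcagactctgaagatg
Of the 324 stretches of 31 bases along the aligned Rpl34, 62 covered a differing base, and of 318 along the aligned Rpl30, 31 did. Elsewhere in the reading frame, a fragment that did not reach a differing base carried the same letters in the gene and the copy. Each gene and its copy lie on different chromosomes in RefSeq, which lists Gm12191 as a transcribed pseudogene and Rpl34-ps1 as protein-coding, whereas GENCODE lists Rpl34-ps1 as a processed pseudogene.

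RPL34 is a protein of the large subunit. In order of day, Rpl34 was at 11.3, 29.9 and 13.1 FPKM in the set A libraries and at 14.8, 13.1 and 12.3 FPKM in the set B libraries, against 880, 461 and 957 FPKM in control. Its copy Rpl34-ps1 was at 1028, 1033 and 1115 FPKM in the set A libraries and 1108, 928 and 1130 FPKM in those of set B, against 1.92, 505 and 4.09 FPKM in control. The 6 mutant libraries lay far below control for the gene and far above it for the copy, with no overlap either way. The share of the pair's FPKM listed under Rpl34-ps1 was 97.2% to 98.9% in the mutants, against 0.217%, 52.3% and 0.425% at days 8, 9 and 10 of control. The control libraries thus differed among themselves: at day 9 the pair was listed in nearly equal parts under each symbol, and at the other days almost wholly under Rpl34.

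Summed over both symbols, the Rpl34 pair was at 1073 ± 76.0 FPKM in the mutants (SD, n = 6) and 937 ± 47.3 FPKM in control (SD, n = 3). The mutant libraries ran from 941 to 1142 FPKM and the control libraries from 882 to 966 FPKM, so the sums overlapped. At the authors' scaling, the low Rpl34 values of the mutants convert to about 72.2 to 190 fragments over the aligned bases. The low Rpl34-ps1 values of control convert to about 12.2 fragments at day 8 and 26.9 at day 10. These are conversions of FPKM and not counted reads, and they bear on counting error only. The error of assigning fragments between gene and copy was not examined.

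RPL30 is another large subunit protein. Rpl30 was at 25.5, 32.2 and 28.5 FPKM in the set A libraries and 25.8, 23.4 and 21.4 FPKM in those of set B, against 335, 383 and 422 FPKM in control. Gm12191 was at 800, 809 and 771 FPKM in the set A libraries and 785, 708 and 836 FPKM in those of set B, against 356, 384 and 420 FPKM in control. Neither symbol overlapped between mutant and control libraries. Gm12191 held 96.2% to 97.5% of the pair in the mutants and 49.9% to 51.6% in control, so here all 3 control libraries were close to equal parts, and no control library was listed mostly under 1 symbol. The sum was 811 ± 44.3 FPKM in the mutants (SD, n = 6) and 766 ± 75.2 FPKM in control (SD, n = 3), and the groups overlapped, at 731 to 858 FPKM and 691 to 841 FPKM.

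**Figure D1:**
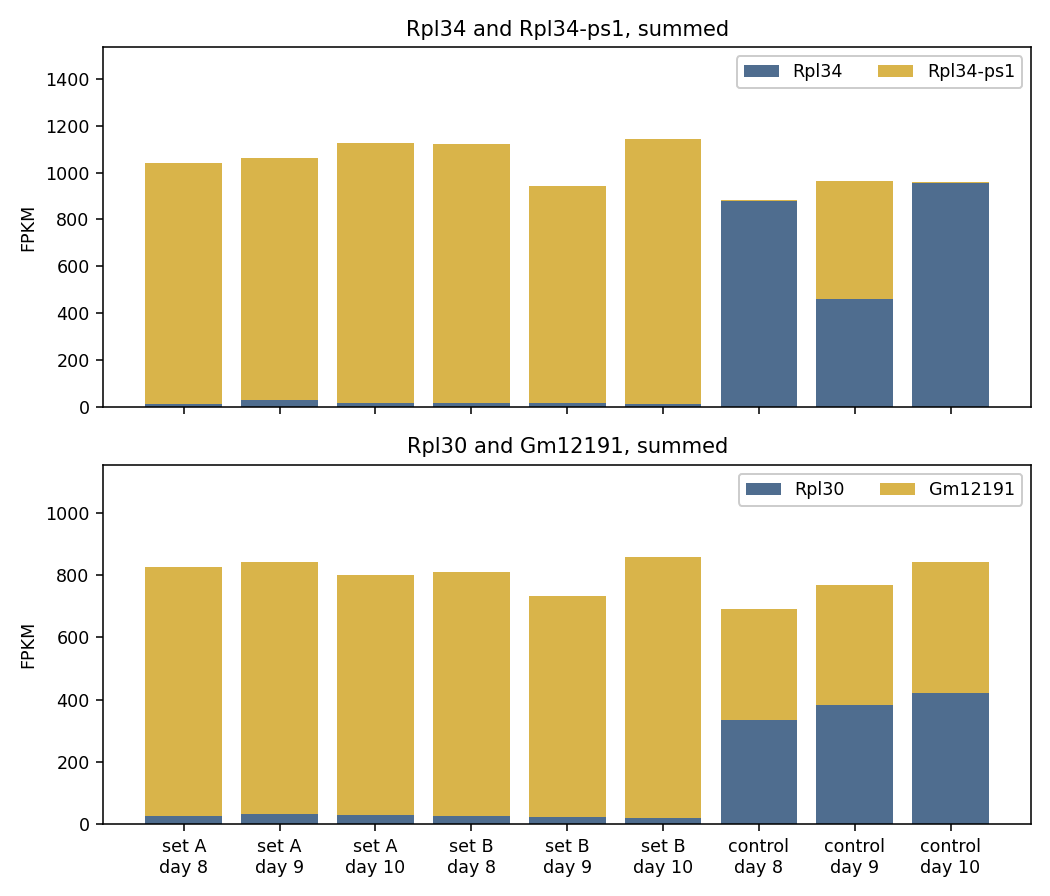
FPKM of each gene (blue) and its near-identical copy (yellow), stacked, in the 9 libraries, with set A, set B and control from left to right. The totals run from 882 to 1142 FPKM for the Rpl34 pair and from 691 to 858 FPKM for the Rpl30 pair. The Rpl34 pair is listed under the copy in the mutants, and in control it is split only at day 9, whereas the Rpl30 pair is split at all 3 days of control.

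On log2(FPKM + 1), with both mutant sets against control, Rpl34 differed by −5.53 ± 0.33 (SE), Rpl30 by −3.82 ± 0.10 and Gm12191 by 1.02 ± 0.08. Rpl34-ps1 differed by 5.75 ± 1.45, a wide error that came with the 3 unlike control values. Without the day-9 control library the same difference was 8.10. The sums differed by 0.19 ± 0.08 for the Rpl34 pair and 0.08 ± 0.08 for the Rpl30 pair. The 2 sets shared the control libraries, and their values stood side by side: Rpl34 differed by −5.38 in set A and −5.67 in set B, Rpl30 by −3.68 and −3.95, and Gm12191 by 1.04 and 1.00. The table holds estimates and no reads, so the base that each library carried at these positions was not examined. The transcripts to which the authors assigned fragments are not named in the sources used here.

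The other near-identical copies took little of their gene's signal. A search of the transcripts found 20 pairs that were at least 95% identical over at least 90% of the shorter one, and 15 of them joined another source gene and its copy. In 14 of these 15 the copy held at most 2.08% of the pair in any library, mutant or control. Rps27rt was identical to Rps27 over 341 bases and was listed at 0 in every library, while Rps27 averaged 2206 ± 150 FPKM in the mutants (SD, n = 6) and 2074 ± 170 FPKM in control (SD, n = 3).

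The 1 exception was Rpl37rt, a retrotransposed copy that differs from Rpl37 at G249A alone over the 294 aligned bases. This pair is shown because it is as alike as Rpl30 and Gm12191 but did not follow the mutant and control groups.
Rpl37 at 249: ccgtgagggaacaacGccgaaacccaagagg
Rpl37rt at 249: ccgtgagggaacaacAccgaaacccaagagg
Rpl37rt was at 11.9, 33.4 and 29.4 FPKM in the set A libraries and 17.1, 24.4 and 33.6 FPKM in those of set B, against 31.8, 14.8 and 26.2 FPKM in control. Its share of the pair was 2.87% to 7.16% in the mutants and 3.63% to 7.92% in control, so the groups overlapped throughout. Rpl37 itself averaged 427 ± 28.4 FPKM in the mutants (SD, n = 6) and 400 ± 33.8 FPKM in control (SD, n = 3).

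Apart from Rpl34 and Rpl30, 75 genes of the large subunit, the small subunit and the stalk were measured, and they were among the most abundant transcripts of these libraries. Their mean over the 9 libraries ran from 51.9 FPKM for Rps15a to 3802 FPKM for Rplp1, with a median of 1122 FPKM. After Rplp1, a stalk protein, the highest were Rpl41 at 3506, Rps26 at 2986, Rps2 at 2670 and Rpl28 at 2547 FPKM. All 97 symbols together made up 13.9% ± 0.64 of the summed FPKM in the mutants (SD, n = 6) and 12.7% ± 0.98 in control (SD, n = 3).

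These 75 genes moved together from library to library. When each gene was divided by its own mean, the median over the 75 was 1.01, 1.01 and 1.04 in the set A libraries and 1.07, 0.914 and 1.09 in those of set B, against 0.896, 0.950 and 1.03 in control. The lowest mutant library was day 9 of set B, which lay within the control range. In each group the day-10 library was the highest. Dividing each gene by this shared factor lowered its median coefficient of variation over the libraries to 3.38%, against 7.46% for the values as deposited. The factor was taken from the same genes, so this describes how alike they were and tests nothing. After that division Rpl36, a large subunit protein, varied most, with a coefficient of 13.0%.

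**Figure D2:**
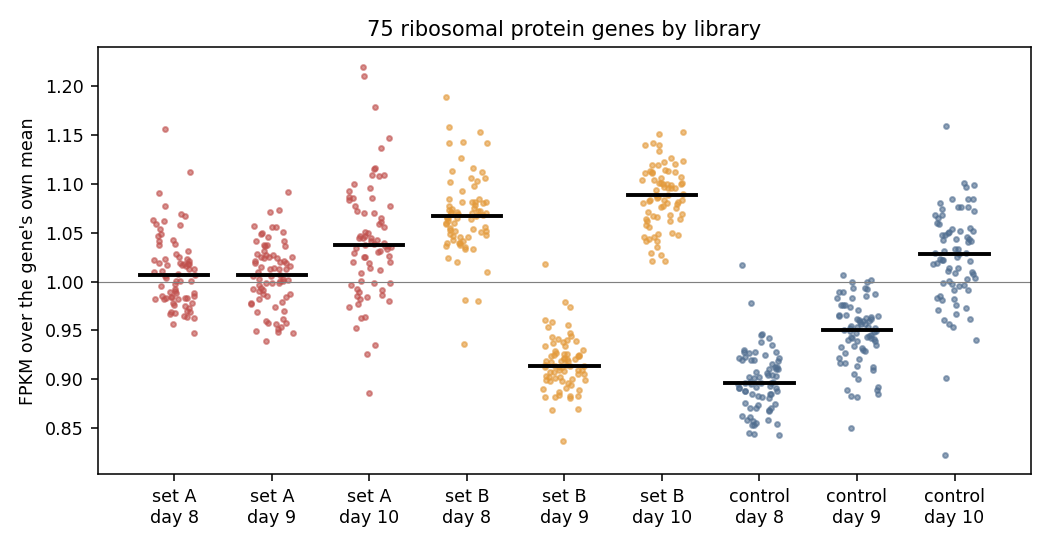
FPKM of 75 ribosomal protein genes divided by each gene's own mean over the 9 libraries, 1 point per gene, with the median as a black bar, for set A, set B and control from left to right. Most genes of a library sit close to its bar, and the bars run from 0.896 at day 8 of control to 1.09 at day 10 of set B.

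The letters around the annotated starts of these genes were not used by the symbol rule. RefSeq promoters (GRCm38.p6, from 250 bases before to 50 after the annotated start) were at hand for 57 of the genes of the large subunit, the small subunit and the stalk. A gene counted as a match if any of its promoters matched, so a gene with more promoters had more chances to match. The number of promoters per gene was not compared between the sets of genes below. A C within 5 bases of the annotated start, followed by at least 4 more pyrimidines, was present in 27 of the 57 (47.4%). The shares were 23.8% of the 9454 tested genes with a promoter and 21.2% of all 27025 genes with a promoter. CCGGAAG or its complement CTTCCGG, on either strand anywhere in the window, was present in 24 (42.1%). It was present in 20.9% of tested genes and in 9.93% of all genes with a promoter. The sequences below show the tract in 4 abundant members and at 1 start of Rpl34, over 10 bases before and 20 from the annotated start. Capitals mark a run of pyrimidines. It begins at the first C within 5 bases of the annotated start that at least 4 more pyrimidines follow directly. Pyrimidines directly before that C are in lower case.
Rps26, chr10:128626487-128626516, minus strand: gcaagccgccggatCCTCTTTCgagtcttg
Rps2, chr17:24720053-24720082, plus strand: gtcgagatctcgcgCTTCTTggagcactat
Rpl28, chr7:4792955-4792984, plus strand: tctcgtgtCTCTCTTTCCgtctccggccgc
Rpl35, chr2:39005112-39005141, minus strand: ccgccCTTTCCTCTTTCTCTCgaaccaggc
Rpl34, chr3:130730379-130730408, minus strand: tccctgacgtaCTTCCTgtccggcgccgtc
Such a match is a description of the letters near an annotated start, which may lie some bases from the start used in these cells.

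Set against the control, 90 members could be tested, since they reached at least 1 FPKM in at least 3 libraries: all of the large subunit, the small subunit and the stalk, 6 of the 11 paralogs, 6 of the 8 pseudogenes, and Rps19bp1. With both mutant sets against control, limma called 3 of the 90 at an adjusted p under 0.05, Gm12191 as higher and Rpl34 and Rpl30 as lower, while 140 of all 12097 genes tested (1.16%) were called. Set A gave the same 3 members, with 0.215% of all genes called, and set B the same 3, with 0.628% called. The rule used these contrasts, so nothing is read from the counts. After each gene was summed with its named copies, limma called 0 of 84 members, with 3 at an unadjusted p under 0.05, against 126 of 12091 features called in all (1.04%) and 2534 (21.0%) at an unadjusted p under 0.05.

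Most of the other members lay slightly above control, by about the error of a single gene. Of the 86 members other than those 4 symbols, limma called 0, with 3 at an unadjusted p under 0.05, while of all 12097 genes tested 1.16% were called and 2537 (21.0%) had an unadjusted p under 0.05. The difference was positive for 77 and negative for 9, with a median of 0.09 on the log2 scale, against a median of −0.00 over all genes tested. Over the 75 abundant genes the differences ran from −0.02 to 0.19 with a median SE of 0.09, and limma called none of the 75. These genes share 1 factor per library and are not independent of each other. Rescaled to equal totals the 86 split into 80 positive and 6 negative, and to equal totals of all other rows into 81 and 5. These rescalings moved all genes upward: the median over all genes tested became 0.03 and 0.05, beside 0.13 and 0.15 for the 86.

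The summed FPKM of the 97 symbols showed the same overlap. It was 93181, 92958 and 97065 in the set A libraries and 98944, 84737 and 100005 in those of set B, against 82989, 87623 and 94245 in control. The mean was 94482 ± 5587 in the mutants (SD, n = 6) and 88286 ± 5657 in control (SD, n = 3), a ratio of 1.07. Day 9 of set B lay below the control mean, day 10 of control lay above 3 of the mutant libraries, and without day 9 of set B the ratio was 1.09. In bulk samples, fewer cells of a type and less RNA per cell cannot be told apart.

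**Figure D3:**
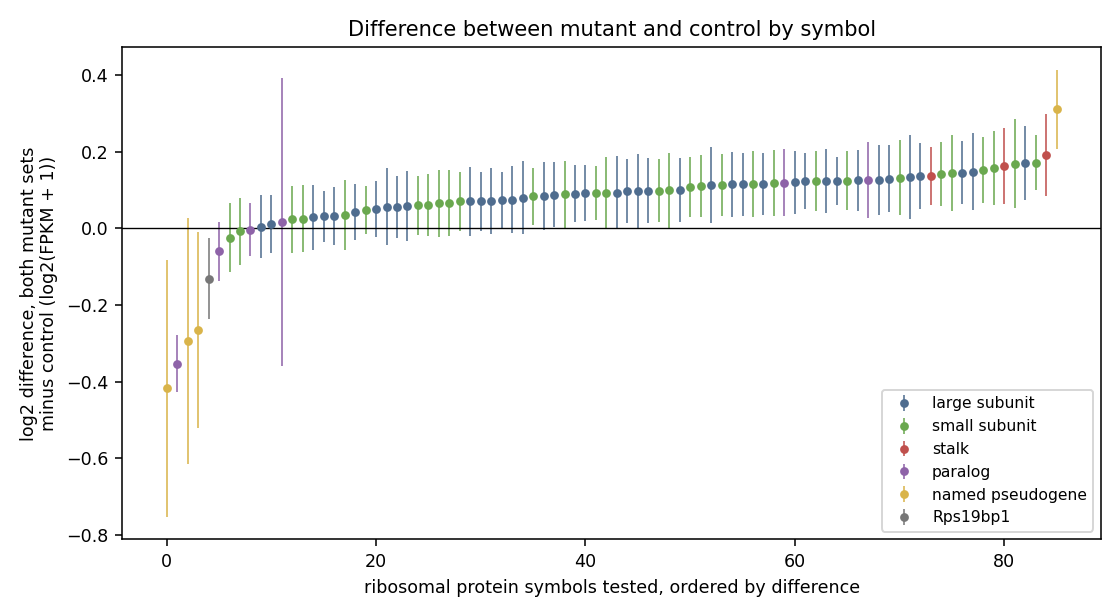
Difference in log2(FPKM + 1) of both mutant sets minus control for 86 tested members, ordered by size, with the standard error as a bar and the class of the member as colour, without Rpl34, Rpl30, Rpl34-ps1 and Gm12191. Nearly all genes of the 2 subunits lie between −0.02 and 0.19, and Rps4l, the second from the left, stands below them with a short error bar.

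Among the large subunit genes all 41 other than Rpl34 and Rpl30 had a positive difference, and none of them was called. Rpl38, whose loss alters the axial skeleton in mice, had the highest of them at 0.17 ± 0.10 (limma adjusted p = 0.346), with 1650 ± 154 FPKM in the mutants (SD, n = 6) and 1465 ± 148 FPKM in control (SD, n = 3). Rpl4, which helps to line the exit tunnel, was at 0.00 ± 0.08. RPL5 and RPL11 form a particle with 5S rRNA that can bind MDM2 and so bears on p53. Rpl5 differed by 0.01 ± 0.08 and Rpl11 by 0.12 ± 0.08. Rpl18 was 1 of 2 core genes whose groups did not overlap, at 1588 to 1767 FPKM in the mutants and 1525 to 1581 FPKM in control, yet its difference of 0.12 ± 0.06 did not pass (limma adjusted p = 0.296).

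Of 31 small subunit genes, 29 had a positive and 2 a negative difference, and limma called none. Rps21 was the other core gene without overlap. It was at 1073, 989 and 948 FPKM in the set A libraries and 1076, 940 and 991 FPKM in those of set B, against 862, 878 and 928 FPKM in control, with a difference of 0.17 ± 0.07 (limma adjusted p = 0.223). Rps6, the substrate of the S6 kinases, differed by 0.09 ± 0.09, and Rps27a, made as a fusion with ubiquitin, by 0.13 ± 0.10. Rps3a1 had the lowest value of the small subunit, −0.02 ± 0.09.

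The stalk recruits elongation factors to the large subunit. Rplp0 averaged 2165 ± 226 FPKM in the mutants (SD, n = 6) and 1925 ± 42.2 FPKM in control (SD, n = 3), a difference of 0.16 ± 0.10 (limma adjusted p = 0.388). Rplp1 averaged 3972 ± 441 FPKM in the mutants (SD, n = 6) and 3463 ± 183 FPKM in control (SD, n = 3), which was the highest difference of the 75 genes at 0.19 ± 0.11 (limma adjusted p = 0.338). Rplp2 differed by 0.14 ± 0.08 (limma adjusted p = 0.340). The spread within the mutants covered much of these differences: for Rplp1 the day-9 library of set B, at 3489 FPKM, lay within the control range of 3264 to 3625 FPKM.

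Over all tested members, 8 of 90 (8.89%) showed no overlap between the 6 mutant and the 3 control libraries, against 12.6% of all genes tested. Of these 8, 4 were the symbols that had prompted the choice of the family, so nothing is read from the share. The 4 outside the chosen symbols were Rpl18, Rps21, Rplp2-ps1 and Rps4l, and Rps4l was the single one of them that was lower.

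Rps4l was the member, other than Rpl34 and Rpl30, that stood lowest relative to its error. RefSeq lists it as a transcribed pseudogene, and its transcript was 79.7% identical to Rps4x, the X-linked small subunit gene, over 814 bases, which leaves far more differing bases than in the pairs above. Rps4l was at 63.8, 65.1 and 59.2 FPKM in the set A libraries and 75.1, 66.4 and 64.4 FPKM in those of set B, against 76.7, 87.4 and 88.3 FPKM in control. Every mutant library lay below every control library, though day 8 of set B, at 75.1 FPKM, came close to day 8 of control. The mean was 65.7 ± 5.22 FPKM in the mutants (SD, n = 6) and 84.1 ± 6.47 FPKM in control (SD, n = 3), a log2 difference of −0.35 ± 0.08, which did not pass (limma adjusted p = 0.0659, range over the alternatives 0.0431 to 0.266). It passed only when the day-9 library of set B was left out, with −0.34. The difference was −0.42 in set A (limma adjusted p = 0.104) and −0.29 in set B (limma adjusted p = 0.169). Rps4x, from 1008 to 1194 FPKM in the mutants and from 1019 to 1233 FPKM in control, differed by −0.01 ± 0.09.

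**Figure D4:**
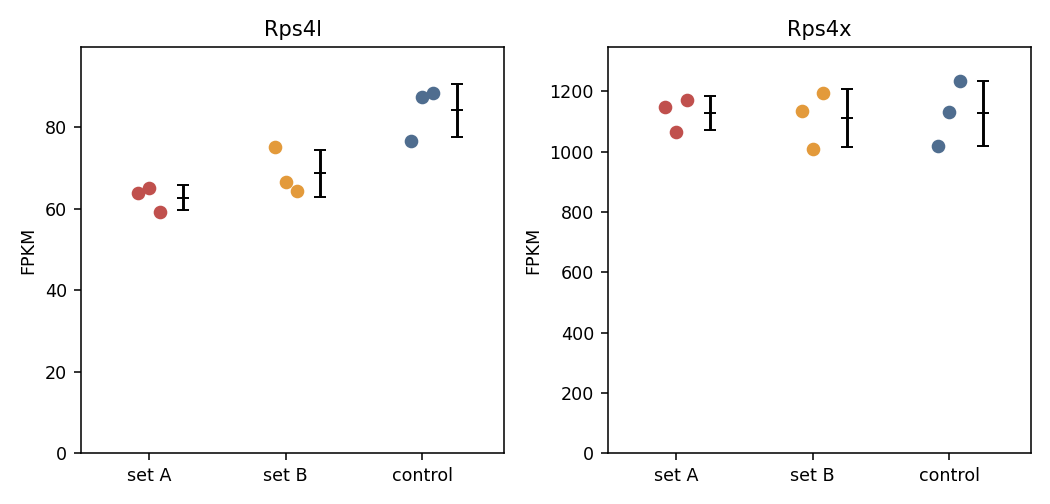
FPKM of Rps4l (left panel) and Rps4x (right panel) in each library of set A, set B and control, with the group mean and SD (n = 3) beside the points and both axes starting at 0. The 6 mutant libraries of Rps4l, at 59.2 to 75.1 FPKM, lie below the 3 control libraries, at 76.7 to 88.3 FPKM, while the groups of Rps4x overlap.

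Divided by the shared factor of the 75 genes, Rps4l had a log2 ratio of −0.44, mutants over control. On this relative scale Rpl4, Rpl22 and Rpl13 were among the genes that also showed no overlap, all 3 lower in the mutants, with log2 ratios between −0.09 and −0.06. These small values rest on a factor made from the same genes and were not tested.

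The remaining paralogs overlapped between the groups. Rpl22l1, the paralog of Rpl22, averaged 97.6 ± 7.77 FPKM in the mutants (SD, n = 6) and 102 ± 5.52 FPKM in control (SD, n = 3), a difference of −0.06 ± 0.08. Rps27l, a p53 target, averaged 232 ± 20.01 FPKM in the mutants (SD, n = 6) and 213 ± 13.7 FPKM in control (SD, n = 3), and Rpl36al averaged 353 ± 36.5 FPKM in the mutants (SD, n = 6) and 322 ± 19.8 FPKM in control (SD, n = 3). Rpl7l1 was at 42.0 FPKM in both. Rps19bp1 differed by −0.13 ± 0.11. Rpl3l, the striated muscle paralog of Rpl3, Rpl39l and Rpl32l stayed below 1 FPKM in every library, and Rpl10l, known from the mouse testis, was listed at 0 in all 9 libraries.

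The other named pseudogenes were near the limit of measurement. Rplp2-ps1 ran from 1.55 to 2.16 FPKM in the mutants and from 1.19 to 1.47 FPKM in control, a difference of 0.31 ± 0.10 that did not pass (limma adjusted p = 0.151), beside its source gene Rplp2 at 0.14 ± 0.08. Rpl31-ps12 had the most negative value of the family apart from the chosen symbols, −0.42 ± 0.34, with 0.382 to 3.04 FPKM in the mutants and 1.45 to 3.36 FPKM in control. Its source gene Rpl31 differed by 0.09 ± 0.09. Rpl14-ps1 differed by −0.29 ± 0.32 and Rps19-ps3 by −0.27 ± 0.26, beside Rpl14 at 0.10 ± 0.08 and Rps19 at 0.06 ± 0.08. The Rps15a copies Rps15a-ps4 and Rps15a-ps6 reached at most 1.21 and 1.05 FPKM, were not tested, and stood beside Rps15a at 0.11 ± 0.08. The errors of Rpl31-ps12, Rpl14-ps1 and Rps19-ps3 exceed the differences of all 75 abundant genes, so differences of that size could not be detected in these copies.

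The comparison of set B with set A, the mutant groups whose titles differ by the Cdx2 allele, was not used to choose the family. Limma called 0 of the 90 members and 0 of 12097 genes (0%), with 1 member and 376 genes (3.11%) at an unadjusted p under 0.05. That member was Rpl30, at 23.5 ± 2.21 FPKM in set B (SD, n = 3) and 28.7 ± 3.36 FPKM in set A (SD, n = 3), a difference of −0.28 ± 0.12 (limma adjusted p = 0.9999). The next smallest p belonged to Rps4l, which differed by 0.13 ± 0.09, and Rps2, by −0.10 ± 0.07. The largest positive and negative differences outside the chosen symbols were low-level copies, Rpl31-ps12 at 0.44 ± 0.39 and Rps19-ps3 at −0.19 ± 0.29, and among the abundant genes Rpl38 was highest at 0.12 ± 0.11.

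Over the 75 abundant genes, set B minus set A had a median of 0.00, with 40 positive and 35 negative values between −0.10 and 0.12. The 95% intervals of the single genes all lay within −0.38 to 0.37, and the median SE was 0.10. Rescaled to equal totals the split was 8 positive and 67 negative with a median of −0.04, and with equal totals of the other rows it was also 8 and 67, so the direction of these values depends on the scaling. After summing with the named copies limma again called 0 members and 0 of 12091 features (0%), with 375 features at an unadjusted p under 0.05. The Rpl34 pair differed by −0.01 ± 0.09 and the Rpl30 pair by −0.04 ± 0.10.

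The slope over days 8, 9 and 10, fitted with 1 slope shared by the 3 groups, was not used to choose the family either. Limma called 0 of 90 members and 0 of 12097 genes (0%), with 0 members and 390 genes (3.22%) at an unadjusted p under 0.05. In the deposited values 70 of the 75 abundant genes had a positive slope and 5 a negative one, with a median of 0.05 per day on the log2 scale, but rescaled to equal totals 15 were positive and 60 negative, and to equal totals of the other rows 11 and 64. The direction over time thus depends on the scaling. The day-10 libraries had the highest summed FPKM in each group. The smallest p values belonged to Rpl32 and Rpl27, each at 0.09 ± 0.05 per day, to Rpl14-ps1 at 0.29 ± 0.16, to Rpl35a at 0.08 ± 0.05 and to Rps18 at 0.07 ± 0.05 (limma adjusted p = 0.959 for each). Rpl37rt had the most positive slope, 0.32 ± 0.20 per day, and Rpl31-ps12 the most negative, −0.19 ± 0.20 per day, and neither passed. Rpl34 and Rpl30 had slopes of 0.01 ± 0.20 and 0.04 ± 0.06 per day, beside 0.16 ± 0.89 for Rpl34-ps1 and 0.05 ± 0.05 for Gm12191.

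Other genes of translation that the symbol rule leaves out were set beside the family, in both mutant sets against control. Of 3 ribosomal proteins under other symbols limma called 0, with 0 at an unadjusted p under 0.05. Among them Fau, made as a fusion with a ubiquitin-like protein, differed by 0.20 ± 0.09 (limma adjusted p = 0.262) and Rack1 by 0.06 ± 0.09. Of 19 elongation and initiation factors and other mRNAs with a pyrimidine tract limma called 0, with 0 at an unadjusted p under 0.05, beside the 2537 of 12097 genes (21.0%) given above. The values were positive for 16 and negative for 3, with a median of 0.04. The lowest was that of the initiation factor subunit Eif2s3x at −0.27 ± 0.16. Its size depends in part on the set B library described above as standing apart, which was at 56.2 FPKM. The other mutant libraries were at 88.4 to 99.5 FPKM and overlapped with control, at 97.0 to 110 FPKM. Pabpc1, the cytoplasmic poly(A)-binding protein, differed by 0.17 ± 0.08 and Eef2, the translocation factor, by 0.05 ± 0.09. Eef1a1, which delivers tRNA, differed by 0.01 ± 0.09.

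Markers of cell types moved with the groups in part. The summed FPKM of 6 epithelial markers was 3223 to 3826 in the mutants and 3133 to 3741 in control. That of 4 Paneth cell markers was 9198 to 21281 in the mutants and 35669 to 59136 in control. Limma called 4 of 4 as lower in both mutant sets against control (1.16% of all genes called). It called 0 of 4 in set A alone (0.215% of all genes called) and 0 of 4 in set B alone (0.628%). All 4 had an unadjusted p under 0.05 in each, beside 16.7% of all genes tested in set A and 16.5% in set B. The 4 cycling cell markers summed to 230 to 269 in the mutants and 294 to 330 in control. Of these 4, 1, Mcm5, was called lower in both mutant sets against control and 0 in either set alone. Again 4 of 4 had an unadjusted p under 0.05 in each, beside the same 16.7% and 16.5% of all genes. The 6 T cell markers summed to 13.7 to 51.5 in the mutants and 38.1 to 64.5 in control. Limma called 0 of the 5 that could be tested in both mutant sets against control. The 5 fibroblast markers summed to 0.242 to 6.58 in the mutants and 0.0181 to 0.117 in control. Only 1 of them, Dcn, reached the filter, with a difference of 0.97 ± 0.38 that did not pass (limma adjusted p = 0.194). The part of these cell types in the ribosomal protein values was not tested.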

How the data were processed

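Poly(A) RNA libraries from mouse crypt epithelium were sequenced in pairs of reads, per the labels' protocols. The authors deposited FPKM for 24930 symbols. The values themselves gave the unit. Tools listed without a role in the submitters' processing notes are DESeq2 1.40.1 and kallisto 0.46.1, with the build mm9. No source used here gives the annotation. The median ratio to the geometric mean was 1.00276 in every library, so the values are scaled by size factors as well as by length. Summed FPKM ran from 624923 to 755802, and 1 FPKM corresponds to about 16.8 to 19.3 fragments per kilobase.

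Samples were grouped by title. Group means were fitted with limma 3.58.1 (R 4.3.3, trend and robust options) to log2(FPKM + 1) of all 9 libraries, for the 12097 genes that reached 1 FPKM in at least 3 libraries. Benjamini-Hochberg adjustment ran over all of them, and the threshold was 0.05. A further model added 1 slope over days. The pseudocount understates changes of low genes. On simulated data for both mutant sets against control (12097 genes, 200 changed, 10 simulations) the fit found 84.7% of genes with a log2 change of 1 and 96.3% of genes with a log2 change of 2, and 5.03% of calls were false.

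Copies were found with blastn 2.17.0 among GENCODE M21 transcripts of at least 200 bases, of another build than mm9. Promoters came from RefSeq. Gene names follow the deposited table, and single values of some members are not reported here.

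The members, gene lists and tests were chosen with earlier results of these data known. The text names the 4 chosen symbols, named pseudogenes that reach 1 FPKM with their source genes, the 5 highest members, members that pass (or the 5 with the smallest p), the extremes of each comparison, and a list of paralogs. Rpl38, Rpl4, Rpl18, Rps21, Rps3a1, Rpl22, Rpl13 and Rpl36 in both mutant sets against control, and the promoters shown, were chosen after their values were seen, and Rpl5, Rpl11, Rps6, Rps27a and the stalk genes for their roles. Alternatives were another pseudocount (0.1), other filters, rescaling, a minimum fold change, a block for the day, the compared groups alone, summed copies, and leaving out each library.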

Additional observations from a re-analysis of the deposited data

Results flagged for a closer look

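The share of the Rpl34 pair and the level of Rpl34 at day 9 of set A stood apart from the other mutants. Rpl34 was at 29.9 FPKM there, against 11.3 to 14.8 FPKM in the 5 other mutant libraries, and Rpl34-ps1 held 97.2% of the pair, against 98.6% to 98.9%. Both values come from the same pair of symbols, and they were the 2 of 42 quantities examined over the 6 mutant libraries whose gap to the nearest library passed Dixon's limit. Chance passes it in about 1 of 20 such groups.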

How the results depend on the processing

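Members called in both mutant sets, set A and set B against control were 3 each. They became 0 in each comparison when genes were summed with their named pseudogenes or with every near-identical copy. Leaving out 1 library gave 3 to 4 members in both sets, 2 to 4 in set A, 3 to 4 in set B, and 0 to 1 after summing, where the 1 came with the day-9 library of set B left out. In that fit 995 genes in all were called in both sets, 126 in set A and 483 in set B. Without any 1 of the other libraries the counts were 17 to 114, 3 to 14 and 18 to 69, lowest without a control library in both sets (day 10), without day 9 of set A in set A, and without day 10 of set B in set B. With no filter 80 genes were called in both sets. Rpl34-ps1 passed in all 3 comparisons without the day-9 control library, and Gm12191 did not pass in set A without its day-9 library (limma adjusted p = 0.0531).

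No call exists between the mutant sets or over days, and small values there changed sign. Leaving out 1 library, set B minus set A ran from −0.539 to 0.123 for Rpl34, −0.0607 to 0.0812 for Rpl34-ps1, −0.0894 to 0.0308 for Gm12191, −0.426 to 0.0568 for Rps19-ps3, −0.0657 to 0.0739 for the summed Rpl34 pair and −0.0939 to 0.0211 for the summed Rpl30 pair. The slope per day ran from −0.154 to 0.119 for Rpl34, −0.00759 to 0.0949 for Rpl30, −0.705 to 0.859 for Rpl34-ps1 and −0.423 to 0.0302 for Rpl31-ps12. With equal totals the slopes of Rpl34, Rpl30 and Gm12191 were −0.0497, −0.0238 and −0.0185, and with equal totals of the other rows −0.0530, −0.0274 and −0.0222. The cause was not tested.

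Same-day libraries of different groups correlated at −0.24 to 0.62 in their deviations from the group means, not all above 0.1, so the days do not pair all groups. Control and mutant libraries of the same day ran from −0.24 to 0.07. Between set A and set B the same-day values were −0.02, 0.40 and 0.62 in order of day. Their libraries of different days ran from −0.55 to 0.29. A day effect shared by set A and set B alone was not tested. With the day as a replicate block 3 members were again called in each mutant comparison and 0 between the sets, with 97, 16 and 63 genes called in all in both sets, set A and set B.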

Other observations

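Rpl36 varied among libraries apart from the rest of the family. It was at 1120, 1058 and 858 FPKM at days 8, 9 and 10 in set A libraries and 908, 987 and 1062 FPKM in those of set B, against 985, 946 and 798 FPKM in control. Day 10 was its lowest library in set A and in control, whereas the median of the 75 abundant genes was highest there. In set B its highest library was day 10.

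Rpl30 had a further copy, Gm5481, 95.7% identical over 323 bases. It held 2.38% to 4.29% of the Rpl30 and Gm5481 sum in the mutants and 0.0938% to 0.167% in control, where Rpl30 itself was high. Of the Gm12191 and Gm5481 sum it held 0.0775% to 0.178% in the mutants and 0.0935% to 0.157% in control. On that measure the groups overlapped.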
